A study of Caenorhabditis elegans with 2 samples.

Results

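The genes described here are those of fatty acid synthesis, transport and oxidation in Caenorhabditis elegans, described by where DAF-16 binds beside them; DAF-16 is the worm's FOXO protein, held in check by signalling from the insulin receptor DAF-2. They were chosen by name: all genes named fat-, elo-, acs-, acdh-, ech-, lbp- or lipl- with a number in the Ensembl annotation, together with fasn-1, pod-2 and sbp-1. The rule found 81 genes among 19973 nuclear protein-coding genes, in 7 role classes: 3 genes of synthesis, 7 desaturases, 9 elongases, 22 acyl-CoA synthetases, 8 lipases, 9 binding proteins and 23 oxidation enzymes.

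Chromatin immunoprecipitation with an antibody against GFP was followed by sequencing in 2 biological replicates, which form the only group. The animals were whole hermaphrodite L4 larvae of strain ZM7247, taken 54 hours after synchronization as starved L1 larvae. Every animal carried the alleles daf-16(mu86) and daf-2(e1370) and the insertion hpSi4, in which the promoter of the muscle myosin gene myo-3 drives GFP fused to DAF-16a, so by genotype the tagged protein is made in body wall muscle of animals with reduced insulin receptor function. Another label describes the tag as GFP-FLAG and C-terminal, a different order from that of the genotype. The antibody field names daf-16 itself, and the strain is a lone transgenic line. No second genotype, tissue or input library was analysed here, so the values below compare genes and peaks within this group. The files give peak lists without read counts, so the depth of each replicate is unknown, and each peak's signal is the authors' value, with no SD.

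Worms take fatty acids from their bacterial diet and also make them from acetyl-CoA through acetyl-CoA carboxylase (pod-2) and fatty acid synthase (fasn-1), both under the control of the SREBP homologue SBP-1, and then modify them with elongases (elo-) and desaturases (fat-). Lysosomal-type lipases (lipl-) release fatty acids from stored lipid, lipid-binding proteins (lbp-) carry them, and acyl-CoA synthetases (acs-) activate them for storage or for oxidation by acyl-CoA dehydrogenases (acdh-) and enoyl-CoA hydratases (ech-). Many of these genes are best known from the intestine and hypodermis, the main fat stores of the worm, and muscle burns fatty acids. Annotated 5' ends of worm genes are often trans-splice sites rather than transcription starts.

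Of the 81 fatty acid genes, 6 had a reproducible DAF-16 peak at their promoter: the binding protein gene lbp-2, the acyl-CoA synthetase genes acs-16, acs-2 and acs-12, the elongase gene elo-1 and the acyl-CoA dehydrogenase gene acdh-7. No desaturase, no lipase and none of fasn-1, pod-2 and sbp-1 had one. Such a peak lay at the promoter of 6.25% of all nuclear protein-coding genes, so its absence does not set classes this small apart. A reproducible peak is one of the 2563 on the ce11 genome that passed the IDR (irreproducible discovery rate) threshold of the authors, and a gene is called bound when the summit of such a peak lies between 1000 bp upstream and 200 bp downstream of its most upstream annotated 5' end. Peaks of the list called on the pooled replicates, 30000 in all and most of them weak, are called candidates, and 34 of the 81 genes had a candidate in this promoter window. The lowest IDR peak had a signal of 60.46 and the highest other candidate 60.45, so the IDR list is a threshold on the pooled signal.

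The sequences under these summits are shown for the motifs that they hold. Each line below gives a summit with 100 bases on either side, 5' to 3' on the strand of the gene, from the RefSeq copy of WBcel235, the assembly that ce11 names. Capitals mark matches, on either strand, to the DAF-16 binding element (DBE) TGTTTAC, the DAF-16 associated element (DAE) CTTATCA, the repeat GAGAGA, the HLH-1 E-box CAGCTG, the HLH-30 E-box CACGTG, the GATA forms AGATAA as well as AGATAG and likewise TGATAA as well as TGATAG, and the sterol regulatory element TCACNCCAC. They are 5 of the 6 promoter peaks, at lbp-2 (chrX:3260603-3260803, plus strand), acs-2 (chrV:15566554-15566754, plus strand), elo-1 (chrIV:9526186-9526386, plus strand), acdh-7 (chrX:17217074-17217274, minus strand) and acs-12 (chrV:20903794-20903994, plus strand), and the stronger of the intronic peaks of acs-17 (chrX:5942365-5942565, minus strand).
lbp-2: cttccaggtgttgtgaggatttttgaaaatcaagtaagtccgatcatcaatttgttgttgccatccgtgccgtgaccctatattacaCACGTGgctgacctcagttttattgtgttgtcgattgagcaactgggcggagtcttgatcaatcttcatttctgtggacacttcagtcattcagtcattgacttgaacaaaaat
acs-2: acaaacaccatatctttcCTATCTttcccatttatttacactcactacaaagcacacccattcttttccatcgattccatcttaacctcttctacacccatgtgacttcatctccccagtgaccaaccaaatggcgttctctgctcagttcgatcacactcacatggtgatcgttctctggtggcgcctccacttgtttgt
elo-1: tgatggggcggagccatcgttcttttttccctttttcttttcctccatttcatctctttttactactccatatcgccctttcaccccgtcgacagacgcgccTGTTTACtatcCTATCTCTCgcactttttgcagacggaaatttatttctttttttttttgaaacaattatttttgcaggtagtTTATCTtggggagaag
acdh-7: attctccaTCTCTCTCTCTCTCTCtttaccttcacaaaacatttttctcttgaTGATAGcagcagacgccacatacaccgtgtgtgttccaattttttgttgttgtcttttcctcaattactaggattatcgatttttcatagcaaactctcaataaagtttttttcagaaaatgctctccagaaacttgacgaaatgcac
acs-12: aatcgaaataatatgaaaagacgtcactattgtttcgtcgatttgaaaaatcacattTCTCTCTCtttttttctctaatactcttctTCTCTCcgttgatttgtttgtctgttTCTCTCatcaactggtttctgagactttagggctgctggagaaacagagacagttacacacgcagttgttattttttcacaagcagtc
acs-17: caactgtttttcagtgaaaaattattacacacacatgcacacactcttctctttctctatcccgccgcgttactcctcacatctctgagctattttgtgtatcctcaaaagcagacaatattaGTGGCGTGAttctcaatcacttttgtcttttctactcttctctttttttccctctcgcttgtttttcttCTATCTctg

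The DBE was seen under 1 of these summits, that of elo-1, where the match at chrIV:9526288-9526294 had its centre 5 bp from the summit. A GATA form and a TCTCTC, the reverse complement of GAGAGA, started 13 and 16 bp past that summit, so elo-1 held 3 of the searched motifs. The acdh-7 and acs-12 windows held runs of TCTCTC, starting 92 bp before the summit at acdh-7 and 43 bp before it at acs-12. A GATA form started 47 bp before the summit at acdh-7. The window of lbp-2 held a CACGTG 13 bp before its summit, and that of acs-2 a lone GATA match 82 bp before it. The intronic peak of acs-17 was chosen for display after its values and motifs were seen, and an intronic peak of ech-1.2 that is not shown had a higher signal, 245 against 225. In the acs-17 sequence the sterol regulatory element was found as its reverse complement GTGGCGTGA, starting 23 bp past the summit, an element that lay within 100 bp of 0.866% of all nuclear IDR peaks. Each match is a run of letters and not a measured site.

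With both replicates and this window, the share of bound genes was near that of the genome. It was 7.41% of the fatty acid genes (Wilson 95% interval 3.44 to 15.2), against 6.25% of all nuclear protein-coding genes, where 1249 of 19973 were bound. Among genes with a candidate it was 17.6% (6 of 34, interval 8.35 to 33.5), against 19% of all such genes (1249 of 6580). Candidates of any strength lay at 41.98% of the fatty acid genes (interval 31.8 to 52.8), against 32.9% of all genes. The strongest candidate of a gene had a median signal of 23.5 over the 34 fatty acid genes and of 23.0 over all 6580 genes with a candidate. No test was made of these differences, and a share near the background says nothing particular about fatty acid genes. The count of 6 moved to 2 when replicate 1 was left out and the 2563 strongest candidates of replicate 2 were used instead. The share among genes with a candidate was then 5.88% for the fatty acid genes, against 20.1% for all genes. In replicate 1 alone it was 24.2% for the fatty acid genes, against 19.3% for all genes. With a wider window, reaching 2000 bp upstream and 500 bp downstream, 12 fatty acid genes were bound, 24.5% of those with a candidate, against 20.2% of all genes with one.

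**Figure D1:**
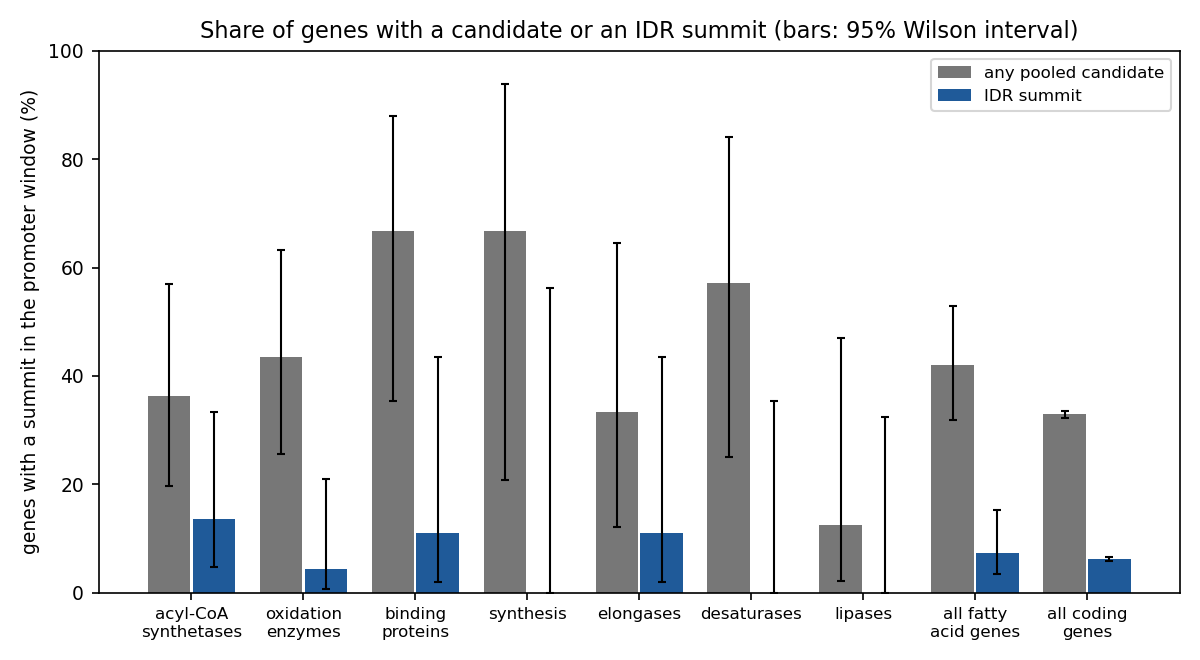
Percentage of genes with any pooled candidate (grey) or an IDR summit (blue) in the promoter window, for the 7 role classes, all 81 fatty acid genes and all 19973 nuclear protein-coding genes; error bars are 95% Wilson intervals. The intervals of the classes are wide and overlap, and the 7.41% of fatty acid genes that were bound stand beside 6.25% of all genes.

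Ordered by the median signal of the strongest candidate per gene, the role classes ran from acyl-CoA synthetases, with 50.5 over 8 genes, through oxidation enzymes, 37.3 over 10 genes, and binding proteins, 24.9 over 6 genes, to synthesis genes, 19.3 over 2 genes, elongases, 16.2 over 3 genes, desaturases, 15.8 over 4 genes, and lipases, where lipl-7 alone had a candidate, of signal 10.6. Desaturases and elongases as 1 class had a median of 16.2 over 7 genes. The ranges overlapped: acyl-CoA synthetases ran from 12.1 to 106, oxidation enzymes from 10.4 to 71.5, binding proteins from 12.05 to 136 and elongases from 10.4 to 72.0. Desaturases stayed between 13.5 and 22.8. Over all genes with a candidate the median was 23.0, with quartiles of 14.3 and 48.1. The order was not tested and changed with the window. With a narrower window, reaching 500 bp upstream and 100 bp downstream, the elongases came first at 72.0, since elo-1 alone then had a candidate in the class. The acyl-CoA synthetases, at 33.5, then stood below oxidation enzymes, at 37.3, and binding proteins, at 34.4. With the wider window the lipases came first, at 196, and the acyl-CoA synthetases second, at 53.6. The lipase value rests on a peak of signal 371, 1513 bp upstream of lipl-2, which is closer to ztf-7.

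**Figure D2:**
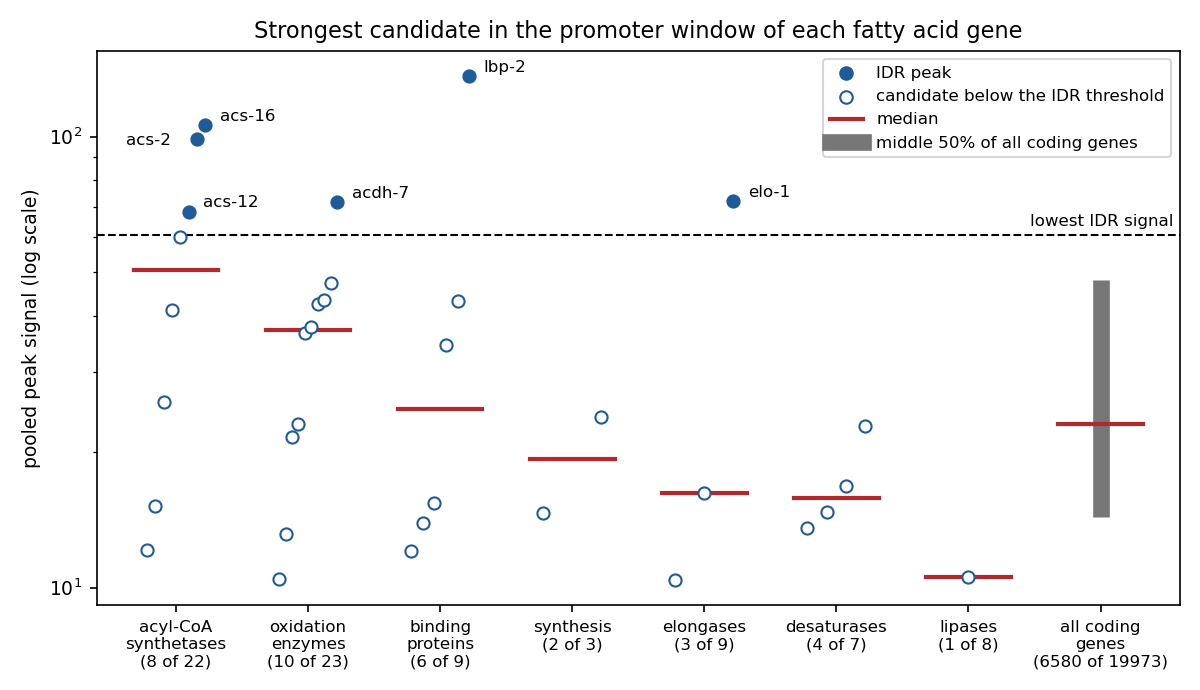
Signal of the strongest pooled candidate in the promoter window of each fatty acid gene, on a log axis, by role class, with the class median in red and, at the right, the median and the middle 50% of all protein-coding genes with a candidate. Filled points are the 6 genes with an IDR peak, open points have only weaker candidates, and numbers under the names give genes with a candidate of all genes in the class.

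The strongest promoter peak of the whole set was at lbp-2, which encodes a secreted fatty acid binding protein. Its summit at X:3260703 lay 93 bp downstream of the most upstream 5' end, in the 5' UTR, with a pooled signal of 136 (rank 603 of 30000) and signals of 57.7 in replicate 1 and 80.9 in replicate 2. It ranked 860 in the list of replicate 1 and 480 in that of replicate 2, inside the 2563 strongest of both. No other gene, piRNA genes aside, had this summit in its window. The neighbouring genes lbp-3 and lbp-1, which also encode secreted binding proteins and lie in tandem with lbp-2 on the X chromosome, had weaker candidates. At lbp-3 the candidate, 129 bp upstream, had a signal of 43.2, with 24.8 in replicate 1 and 19.4 in replicate 2. At lbp-1 it lay 246 bp upstream with a signal of 34.4, with 19.9 in replicate 1 and 16.02 in replicate 2, and neither gene reached the IDR list. A second candidate of lbp-1, 3 bp from its 5' end and of signal 13.4, had a DBE, a DAE and an HLH-1 E-box within 100 bp. The other binding protein genes with a candidate were lbp-4 (signal 15.4), lbp-6 (13.9) and lbp-9 (12.05), each seen in 1 replicate at that place. No candidate lay in the window of lbp-5, lbp-7 or lbp-8, and lbp-8, whose product carries lysosomal lipid signals to the nucleus in the intestine, had its nearest candidate 2138 bp downstream of its 5' end.

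Among the acyl-CoA synthetases, which activate fatty acids, 3 of 22 genes were bound. That is 13.6% (interval 4.75 to 33.3), against 6.25% of all genes. The peak of acs-16 lay in the 5' UTR, 85 bp downstream of the 5' end (I:1471160), with a signal of 106. No other gene, piRNA genes aside, shared this peak. That of acs-2, a mitochondrial synthetase known to be induced by fasting through NHR-49, was intergenic, 740 bp upstream (V:15566654), with a signal of 98.99. Both peaks were unequal between replicates. The signal at acs-16 was 73.3 in replicate 1 (rank 498) and 33.2 in replicate 2 (rank 2588), and at acs-2 it was 73.3 in replicate 1 (rank 499) and 32.9 in replicate 2 (rank 2625). In replicate 2 alone, both therefore fell just below the 2563 strongest candidates. Further candidates of acs-2 lay 536 bp upstream, with a signal of 32.1, and 17 bp inside the gene, with 20.0. The summit 740 bp upstream also lies in the window of the noncoding gene linc-108 on the other strand.

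At acs-12 the bound summit lay 275 bp upstream (V:20903894) with a signal of 68.2, and its replicates were alike, 32.9 in replicate 1 and 35.3 in replicate 2, with ranks of 2350 and 2338. The same summit lies 180 bp from the start of amx-3, an amine oxidase gene on the other strand, so the peak cannot be assigned to either gene. When each peak counted for its nearest start alone, acs-12 was not bound. Just outside the IDR list stood acs-21, with an intergenic candidate 522 bp upstream (V:3088546), a signal of 59.8 and rank 2595. Its replicate signals were 38.9 in replicate 1 and 15.4 in replicate 2, where another candidate in the window had 29.2. Its q-value in the authors' list, 1.27e-04, was the same as that of the 6 bound summits. It was also that of the ech-6 candidate, of signal 47.5 and rank 3557, so it does not mark nearness to the threshold. The lowest bound gene by signal was thus acs-12 and the highest unbound gene acs-21, 1 on each side of the threshold. The next candidates of the family were at acs-19, an acetyl-CoA synthetase (431 bp upstream, signal 41.3), acs-17 (439 bp upstream, 25.8), acs-20, a fatty acid transport protein homologue (694 bp upstream, 15.2), and acs-11 (833 bp upstream, 12.1). No candidate lay in the window of the other 14 genes of acs-, among them acs-22, the paralogue of acs-20.

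Of the elongases, 11.1% were bound, against 6.25% of all genes: elo-1, which makes precursors of long polyunsaturated fatty acids, was bound and the other 8 were not. Its summit at IV:9526286 lay 80 bp upstream of the 5' end with a signal of 72.0, and with 40.6 in replicate 1 (rank 1661) and 31.8 in replicate 2 (rank 2750). The summit lies outside protein-coding genes but within the noncoding genes F56H11.8 and F56H11.11, which overlap on opposite strands, so it cannot be assigned to elo-1 alone. Weaker candidates of elo-1 lay 991 bp upstream (signal 23.3) and 125 bp inside the gene (13.9). Low candidates were found at elo-3 (130 bp inside, signal 16.2) and elo-8 (628 bp upstream, signal 10.4, in a sequence that recurs elsewhere in the genome). At elo-5 and elo-6, needed for branched-chain fatty acids, and at elo-2, the palmitate elongase, there was none.

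The desaturases had candidates at 4 of 7 genes, all weak. The highest was that of fat-4, 127 bp inside the gene in a coding exon, with a signal of 22.8 (rank 9466 of 30000) and a match in replicate 2 alone, of 10.5. The omega-3 desaturase gene fat-1 had a candidate of signal 16.8 with no replicate summit within 100 bp, and the oleate desaturase gene fat-2 had 14.7, with 5.93 in replicate 1 and 10.5 in replicate 2. At fat-6, a stearoyl-CoA desaturase, the candidate 124 bp upstream had a signal of 13.5 (10.3 in replicate 2, no match within 100 bp in replicate 1) and also lies in the window of ZK822.9. Its close paralogue fat-7 had its nearest candidate 20969 bp upstream of its 5' end, and the palmitoyl-CoA desaturase gene fat-5 had its nearest 1304 bp downstream. An IDR peak of signal 70.7 lay 1228 bp upstream of fat-2 (IV:13322645), beyond the window and in intergenic sequence. That peak was in no other gene's window, piRNA genes aside.

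The synthesis genes were not bound. The fatty acid synthase gene fasn-1 had a candidate of signal 23.9 in a coding exon, 62 bp from the 5' end (rank 8853), with 13.2 in replicate 1 and no match in replicate 2. The acetyl-CoA carboxylase gene pod-2 had one of signal 14.6, 627 bp upstream in an intron of W09B6.4, with 10.2 in replicate 1 and no match in replicate 2. The window of sbp-1 held no candidate, its nearest lying 415 bp downstream of the 5' end, and its nearest IDR summit lay 2387 bp upstream with a signal of 62.0, near the threshold. Over all genes with a candidate the median was 23.0, near the value of fasn-1 and above that of pod-2.

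Of the 8 lipases 1 had a candidate, 12.5% (interval 2.24 to 47.1), against 32.9% of all genes. It was that of lipl-7, with a signal of 10.6 in the pooled list, 239 bp upstream. The replicate lists had no summit within 100 bp of it, although each had another candidate elsewhere in the window, of signal 18.4 in replicate 1 and 26.6 in replicate 2. The lysosomal lipase gene lipl-4 had its nearest candidate 6700 bp upstream. For lipl-1 and lipl-3, lipases induced by fasting, the nearest lay 19514 and 35917 bp upstream. An IDR peak of signal 371, with 194 in replicate 1 and 177 in replicate 2, lay 1513 bp upstream of lipl-2 at V:9790054. It is closer to ztf-7, a zinc finger gene on the other strand, and lies in the window of that gene.

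Among the 23 oxidation enzymes acdh-7 alone was bound (4.35%, against 6.25% of all genes). Its summit lay 69 bp upstream of the 5' end (X:17217174), with a pooled signal of 71.5, 43.0 in replicate 1 (rank 1500) and 26.4 in replicate 2 (rank 3617). The summit also lies in the window of the noncoding gene T25G12.15. Below the threshold, ech-6, a mitochondrial enoyl-CoA hydratase, led with a signal of 47.5, 157 bp upstream, with 31.9 in replicate 1 and 24.6 in replicate 2. Then came ech-1.2, the alpha subunit of the mitochondrial trifunctional enzyme, with 43.4 (99 bp inside the gene), ech-5 with 42.5 (148 bp upstream) and acdh-9 with 37.9 (189 bp upstream). The ech-5 summit also lies in the window of F56B3.11, and that of acdh-9 is 20 bp from the start of F28A10.13, each on the other strand. By family, 6 of 13 acyl-CoA dehydrogenase genes (46.2%) and 4 of 10 ech- genes (40%) had a candidate, against 32.9% of all genes. The intervals, 23.2 to 70.9 and 16.8 to 68.7, include that share. Median signals were 29.9 and 43.0, against 23.0 over all genes with a candidate. The genes without a candidate in the window included acdh-1, of the propionate breakdown route, and acdh-12, homologous to the very long chain acyl-CoA dehydrogenase. Introns of acdh-12 and ech-1.2 held IDR peaks beyond the window, of signals 85.2 and 245, described below.

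**Figure D3:**
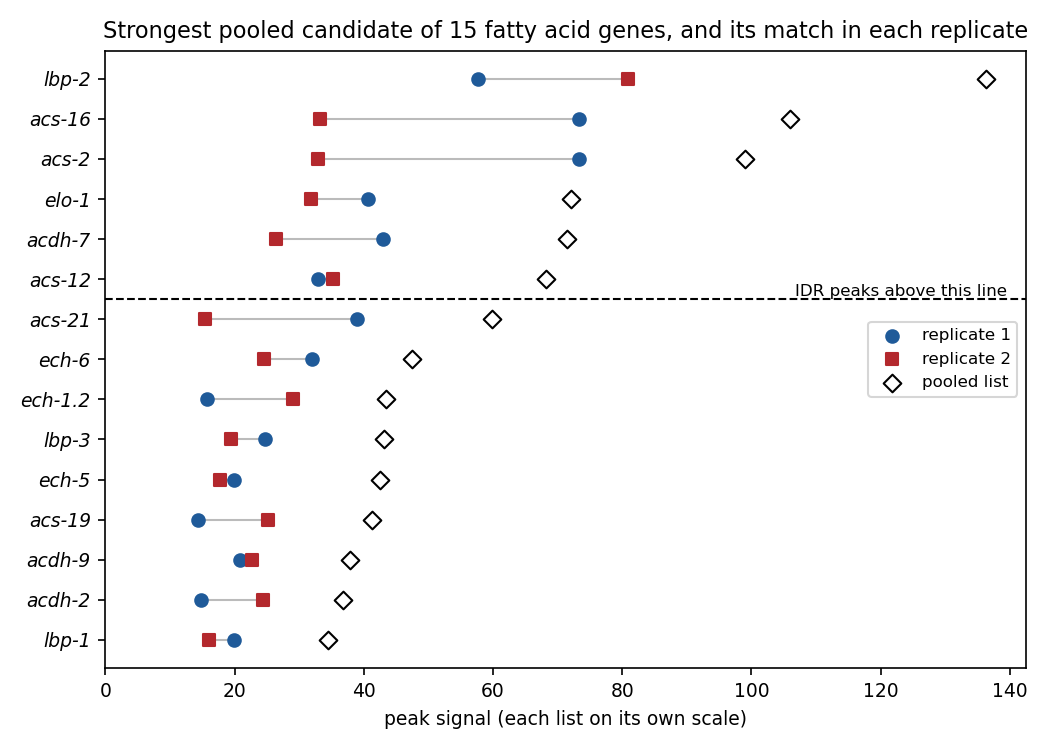
Signal of the strongest pooled candidate (diamonds) of the 15 fatty acid genes with the highest values, and of its match in replicate 1 (circles) and replicate 2 (squares); each list has its own scale and the axis starts at 0. At acs-16 and acs-2 replicate 1 was above replicate 2 (73.3 beside 33.2 and 32.9), at lbp-2 it was below (57.7 beside 80.9), and all 15 candidates had a match in both replicates.

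The replicates recorded the bound promoters alike in place but less so in rank. All 6 IDR peaks of fatty acid genes had a summit within 100 bp in both replicate lists, against 94.9% of all IDR peaks (2433 of 2563). The IDR peaks were called from these same replicates, so such matches are no independent check. Of all 49 candidates in the windows of fatty acid genes, 23 were matched in both replicates and 9 in neither. Of all pooled candidates, in promoter windows or elsewhere, 28.6% were matched in both, which is not a like comparison. Counted by gene, 23 of the 34 fatty acid genes with a candidate had a summit in the window in both replicate lists. Over all genes with a candidate, 4043 of 6580 did. Over the 23 candidates matched in both replicates, the signals were correlated with a Spearman rho of 0.81. After log10 the Pearson r was 0.79, and both values describe peaks that share both libraries. In replicate 2 alone, acs-12 and lbp-2 had a summit among the 2563 strongest candidates. In replicate 1 alone 8 genes did, the 6 bound ones with acs-21 and ech-6.

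Candidates lay mostly upstream of the genes, as does most of the window, which reaches 1000 bp upstream and 200 bp downstream. The upstream share is therefore largely set by the window. Of the 49, 39 were upstream of the 5' end and 35 were in intergenic sequence, with 7 in coding exons, 3 in 5' UTRs, 2 in 3' UTRs and 2 in introns. In 22 genes the window held 1 candidate, in 9 genes 2 and in 3 genes (acs-2, elo-1 and fasn-1) 3. The 6 IDR summits were spread from 740 bp upstream at acs-2 to 93 bp downstream at lbp-2, and 4 of them lay within 100 bp of the 5' end. A 31-base sequence that recurs in the genome was held by none of the 6 IDR peaks. Weak candidates of fat-1, acs-20, ech-7 and elo-8 held one. The share over all peaks is not given, so this does not set the 6 IDR peaks apart from the weak candidates.

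**Figure D4:**
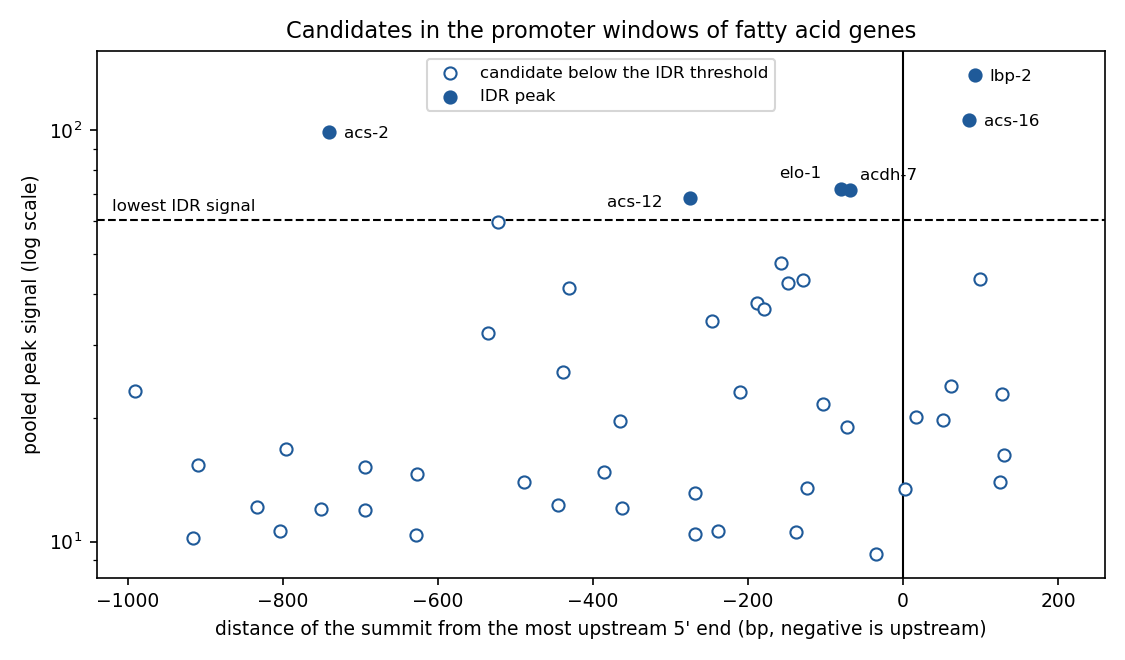
Pooled signal (log axis) of the 49 candidates in the promoter windows of fatty acid genes against the distance of the summit from the most upstream 5' end, in bp, with upstream at the left. The 6 named IDR peaks lie between 740 bp upstream and 93 bp downstream, and candidates below the threshold are found throughout the window.

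Introns of acs-17 and ech-1.2 held IDR peaks of higher signal than any promoter peak of the fatty acid genes. These peaks were looked for after the promoter values were seen. Counting IDR summits anywhere from 1000 bp upstream to the 3' end, 9 of the 81 genes had one (11.1%), against 8.90% of all genes (1777 of 19973), and the added genes were acs-17, ech-1.2 and acdh-12. An intron of acs-17 held a peak of signal 225 (X:5942465, with 103 in replicate 1 and 122 in replicate 2), 2045 bp downstream of the 5' end, and a second of signal 141 (X:5944152, 65.6 in replicate 1 and 75.7 in replicate 2), 358 bp downstream. An intron of ech-1.2 held a peak of signal 245 (I:6210164, with 99.8 in replicate 1 and 144 in replicate 2), 991 bp downstream, with a DBE within 100 bp of its summit. In acdh-12 an intronic peak of signal 85.2 (II:7194825, 40.7 in replicate 1 and 43.9 in replicate 2) lay 816 bp downstream. None of these 4 summits lay in the promoter window of another gene, piRNA genes aside. With the starts of all annotated transcripts in place of the most upstream one, acs-17, ech-1.2 and acdh-12 also counted as bound.

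With 6 IDR peaks the motif shares have wide intervals. GAGAGA lay within 100 bp of 4 of the 6 summits, against 41.3% of all nuclear IDR peaks and 16.1% of the other candidates, and a GATA form at 3 of 6, against 39.1% and 34.3%. The DBE lay at 1 of 6, against 8.98% and 2.45%, and the HLH-30 E-box, the site of the lysosome and fat regulator HLH-30, at 1 of 6, against 7.87% and 4.35%. The DAE, the HLH-1 E-box and the sterol regulatory element lay at none, which allows shares up to 39.0% by the Wilson interval. Searches counted both strands, and the DAE contains the GATA form TGATAA on its reverse strand.

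Over the whole promoter window of 1201 bp, 17 of the 81 fatty acid genes held a DBE (21.0%, against 15.1% of all genes), each 1 site. Of these 17 sites, 2 lay within 100 bp of a pooled summit, those of elo-1 and lbp-1. Among the 17 genes 9 had no candidate at all, including sbp-1 (DBE 626 bp upstream of its 5' end), lipl-5, acs-3 and ech-3, 6 had a candidate but no IDR summit, among them acs-21 just below the threshold, and 2, elo-1 and acs-16, were bound. The DBE of acs-16 lay 990 bp upstream, and the nearest candidate to it, of signal 9.49, was 472 bp away. A DBE in the window of acs-21 lay 147 bp from its summit, and 1 of acdh-2 lay 106 bp from its summit. The DAE was in 35.8% of the windows, against 23.7% of all windows, and the sterol regulatory element, the site of SBP-1 homologues in mammals, in 6.17% (fat-5, elo-5, lbp-9, lipl-4 and acs-15), against 2.00%. These shares were not tested, and a match is a run of letters, not a measured site.

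Other lipid genes, outside the named families, gave 51 genes, of which 22 had a candidate and 6 were bound, or 27.3% of those with a candidate, against 19% over all genes. Each list of them is short, and over all genes 32.9% had a candidate and 6.25% were bound. The strongest was mlcd-1, which encodes malonyl-CoA decarboxylase, with a summit 414 bp upstream (III:4568544), a pooled signal of 240, 141 in replicate 1, 100.3 in replicate 2, and both a DBE and a DAE. That summit lies between mlcd-1 and idhg-1, on the other strand, and cannot be assigned to either. The carnitine shuttle had 2 of 7 genes bound, dif-1, the mitochondrial carnitine carrier (320 bp upstream, in the 3' UTR of a neighbour, signal 141, with 69.8 in replicate 1 and 69.1 in replicate 2), and cpt-2, a carnitine palmitoyltransferase (250 bp upstream, signal 130, with 59.2 in replicate 1 and 68.2 in replicate 2). For cpt-2 the window is shared with C08F8.9. The cytosolic triglyceride lipase gene atgl-1 was bound at 829 bp upstream (signal 110, with 44.8 in replicate 1 and 65.5 in replicate 2), and the lipid droplet perilipin gene plin-1 at 39 bp upstream (signal 72.1, shared with W01A8.2). The nuclear receptor gene nhr-49, a regulator of fat-7 and acs-2, was bound 342 bp upstream with a pooled signal of 70.1, 38.5 in replicate 1 and 40.5 in replicate 2.

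In peroxisomal oxidation 3 of 15 genes had a candidate (acox-3, dhs-28 and prx-5, signals 9.93 to 16.1), against 32.9% of all genes. None of the 15 was bound, against 6.25% of all genes, so the list is too short to stand apart. For the yolk genes vit-1 to vit-6 there was no candidate, and the yolk receptor gene rme-2 had one of 9.41. Of 9 regulators 7 had a candidate, but besides nhr-49 the signals were at most 26.4, at hlh-30, and mdt-15, the mediator subunit that works with SBP-1 and NHR-49, had 16.8. The acetyl-CoA supply gene acly-1 had a candidate of signal 26.1. Among marker genes, body wall muscle markers were bound at 5 of 5 (myo-3, unc-54, unc-15, hlh-1 and pat-10, signals 74.2 to 169, the myo-3 promoter being also in the transgene). None of 4 intestinal, 4 hypodermal, 4 neuronal and 4 germline markers was bound. With 6.25% of all genes bound, lists of 4 genes are too short to set these apart. Candidates lay at the hypodermal elt-3 (10.4), the neuronal snb-1 (25.2) and the germline gld-1 (10.2), and at no intestinal marker. The part that the muscle promoter of the transgene plays in which fatty acid genes were bound was not tested.

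**Figure D5:**
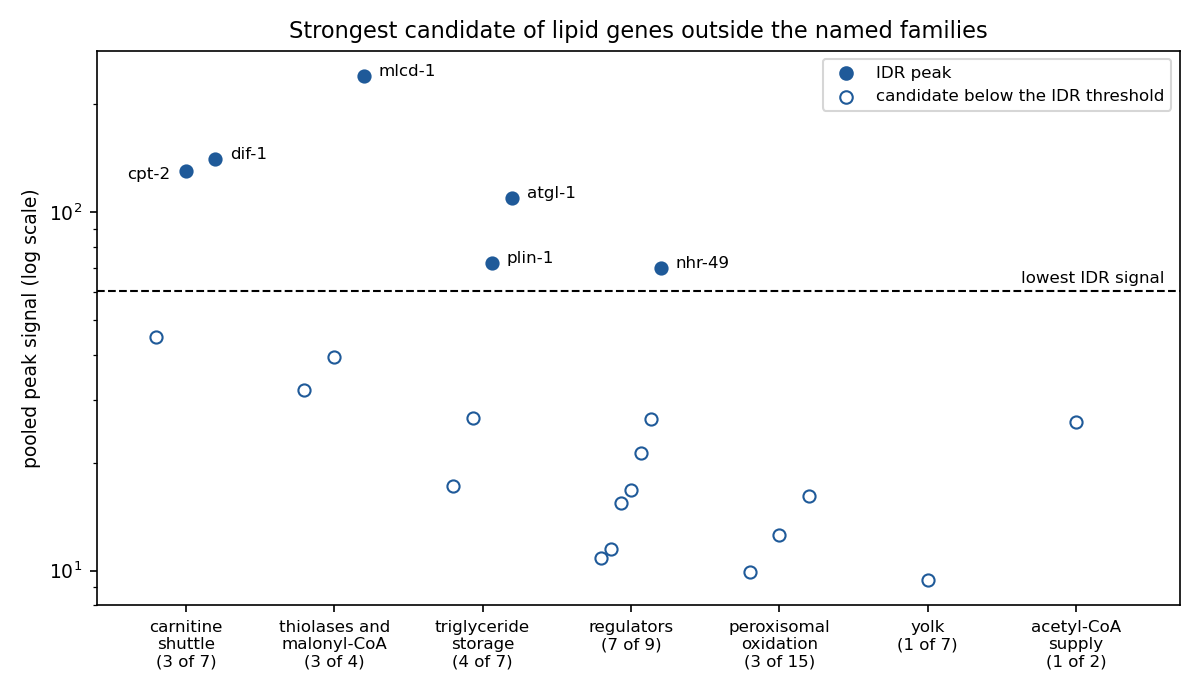
Signal of the strongest pooled candidate (log axis) of lipid genes outside the named families, by list, with genes that have a candidate out of all genes of the list under each name. The 6 filled points are IDR peaks, led by mlcd-1 at 240, and the peroxisomal and yolk genes stay at or below 16.1.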

How the data were processed

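DAF-16 binding was measured in 2 biological replicates by chromatin immunoprecipitation and sequencing. The authors deposited peak lists for ce11 and ce10, per replicate, for the pooled replicates and after the irreproducible discovery rate threshold, derived from the alignments and a further file that is not described, per the deposited file lists. Aligner, peak caller and IDR threshold: not given in the sources used here. Each deposited peak has a signal, whose scale is not given, a −log10 of a q-value and a summit offset.

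The ce11 lists were read with Python 3.11.15, pandas 2.3.3, numpy 2.4.6 and scipy 1.17.1, and genes came from Ensembl release 115 (WBcel235). Coordinates are 1-based ce11 positions. Of ce10, only the lowest IDR signal was used. Summits were matched within 100 bp and motifs searched within 100 bp. The other genes named as sharing a summit leave out piRNA genes. Window, match and motif steps were checked on simulated data. Intervals are Wilson intervals with genes as units and cover counting error only. No test was made, since the design has 1 group. Genes to be named were all bound genes, up to 4 unbound genes per class by signal and 9 genes whatever their values; acs-11, lbp-9, genes with nearby peaks and other genes outside this rule were added after their values were seen. Alternatives changed the window, the 5' ends, the peak set, the replicates and the motif distance. The members and lists were chosen with earlier results of these data known.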

Additional observations from a re-analysis of the deposited data

How the results depend on the processing

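Bound fatty acid genes numbered between 5 and 9 with the narrower window, any transcript start, the nearest start alone, peaks matched in both replicates, peaks without repeated sequence, the threshold of the ce10 list (7, adding acs-21) and the gene body, the last 2 chosen after seeing the data. They were 12 with 2000 bp upstream and 500 bp downstream, 3 with at least the median IDR signal, and 2 to 8 with a replicate left out. Of genes with a candidate, the wider window had 24.5% of fatty acid genes bound, against 20.2% of all genes. In the narrower window it was 19.2%, against 19.9%. Without replicate 1 it was 5.88%, against 20.1%, and without replicate 2 24.2%, against 19.3%. With gene bodies, 11.1% of the 81 genes were bound, against 8.90% of all genes. By class, the wider window gave 1 desaturase, 5 acyl-CoA synthetases, 1 lipase and 3 oxidation enzymes. The stronger IDR peaks gave 0 elongases and 0 oxidation enzymes. Oxidation enzymes were 3 with any transcript start, with the nearest start and with gene bodies. Leaving out a replicate gave 0 to 1 elongases, 1 to 4 acyl-CoA synthetases and 0 to 2 oxidation enzymes. These class counts are small and were not tested against all genes in the same setting, so they do not set any class apart. A wider window takes in more sequence by construction, and other causes were not tested.

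Median signals in the narrower window were 23.9 for synthesis genes, 72.0 for elongases, 33.5 for acyl-CoA synthetases and 34.4 for binding proteins. In the wider window they were 22.03 for synthesis genes, 196 for lipases, 30.7 for binding proteins and 37.9 for oxidation enzymes. The lipase value rests on the lipl-2 peak that is closer to ztf-7. Single replicates, on their own signal scale, gave 11.7 for synthesis genes in replicate 1 and 6.13 to 10.5 for desaturases. The desaturase values rest on 2 genes in replicate 1 and 5 in replicate 2. Acyl-CoA synthetases had 23.7 to 31.0, binding proteins 16.02 to 19.9 and oxidation enzymes 14.9 in both. For lipases the values, 18.4 and 26.6, are those of lipl-7 alone, from summits more than 100 bp from its pooled candidate. A GATA form lay within 200 bp of 83.3% of the 6 peaks (interval 43.6 to 97.0). The shares were 64.4% for all nuclear IDR peaks and 56.6% for the other candidates. Within 50 bp the share of the 6 peaks was 33.3%, against 22.2% and 18.7%. No paired analysis was possible because there is 1 group.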
